A study of Drosophila melanogaster with 10 samples.

Results

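Cytochrome P450 genes encode heme-containing monooxygenases, and 81 of them were measured here among 11982 genes with a probe set of their own. They were chosen by symbol: 83 genes, on 85 probe sets, had a single gene symbol that begins with Cyp and a digit. Cyp1 and Cyp40 share that form of symbol but encode cyclophilins, so they were kept apart, and neither was called in any comparison. Where a gene had several probe sets, the brightest on average across the 10 arrays stood for it. A gene counted as above background, and was tested, where at least 2 arrays lay above a floor of 4.65 log2 intensity units, and 49 of the 81 P450 genes did.

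P450 enzymes insert oxygen into their substrates with electrons passed on by partner proteins. Microsomal P450s receive them from NADPH-cytochrome P450 reductase, and mitochondrial P450s from ferredoxin and its reductase. In insects they make and inactivate ecdysteroids, the moulting hormones, make cuticular hydrocarbons, and act on fatty acids and on foreign compounds such as insecticides. Insect P450s are sorted into clan 2, clan 3, clan 4 and the mitochondrial clan, of which clans 3 and 4 hold most members.

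The arrays came from Drosophila eye-antenna discs, the larval tissue that forms the eye, antenna and head capsule, at the early L3 larval stage (96 h after egg laying). Every genotype carried ey-Gal4, which drives UAS transgenes from an eyeless enhancer, and each had 2 arrays described as biological replicates. The GFP control discs were ey-Gal4/UAS-GFP. COX7a RNAi discs were ey-Gal4/UAS-COX7a-RNAi (v106661), a single hairpin line against a subunit of cytochrome c oxidase. Delta discs were ey-Gal4, UAS-Delta/UAS-GFP and overexpressed a ligand of Notch. Delta with COX7a RNAi discs carried ey-Gal4, UAS-Delta together with the hairpin line, UAS-COX7a-RNAi (v106661), in place of UAS-GFP. Notch intra discs were ey-Gal4/UAS-Notch[intra2], which expresses an intracellular, active form of Notch. The genotypes with Delta carried 2 UAS transgenes and the others 1. Each sample pooled 20 to 30 whole discs, so a value averages cells inside and outside the ey-Gal4 domain.

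Array medians lay between 5.15 and 5.21, and replicates correlated at 0.997 to 0.998 over all genes. COX7A, the target of the hairpin, was at 13.41 and 13.32 on the GFP arrays, 10.50 and 10.54 with COX7a RNAi, and 10.88 and 11.20 with Delta and COX7a RNAi. It fell by 2.85 ± 0.09 (log2, SE) with COX7a RNAi against GFP, limma adjusted p = 5.15e-06. The transgenic Delta and Notch were not analysed here. All 8 disc markers passed the floor (ey, toy, so, eya, dac, Optix, ct and Dll). Of tissues known for many P450 genes, the fat body list had 3 of 4 measured genes above the floor with a summed level of 6.61 to 6.87 over all arrays, and the gut and Malpighian tubule list 2 of 6 with 7.49 to 7.7. No gene of either list was called in any comparison. GFP replicate 1 stood apart for some genes of the ring gland, the larval endocrine organ: spok, an ecdysteroid P450 gene, was at 3.83 there and between 7.58 and 10.34 on the other 9 arrays. Also lower there than on any other array were phtm at 5.39, sad at 5.74 and nvd at 3.40. The genes dib and Akh of that list did not set it apart. The value of dib was 6.86 there, within 6.68 to 7.33 over all arrays, and that of Akh 5.79, beside 5.52 on GFP replicate 2. Results that rest on this array are given with and without it.

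Of the 81 P450 genes, 34 were above the floor on all 10 arrays, 15 on 2 to 9 arrays, 2 on 1 array and 30 on none. Thus 60.5% of P450 genes were tested, against 72.9% of all genes measured. The 5 tested genes of the mitochondrial clan (of 8) were above the floor on every array. Clan 2 had 3 of 4 genes tested, clan 3 had 26 of 37, and clan 4 had 15 of 32. Just inside the rule lay Cyp9b2, above the floor on 2 arrays (range 4.26 to 4.85), and Cyp4d1, on 3 arrays (4.46 to 4.71). Just outside lay Cyp6a2, on 1 array (4.07 to 4.65), and Cyp9b1, on 1 array (4.42 to 4.86).

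The genes that stayed below the floor on every array included several with well-known roles. Cyp4g1, which makes cuticular hydrocarbons in oenocytes, was among them, as was Cyp4g15, described in glia of the brain. Cyp6g1, known for DDT resistance, Cyp12d1-d, induced by foreign compounds, and Cyp303a1, required for sensory organs, were also below it throughout. The other genes below it on all arrays were Cyp12a5, Cyp12c1, Cyp28c1, Cyp309a1, Cyp309a2, Cyp311a1, Cyp313a2, Cyp313a3, Cyp313a4, Cyp313a5, Cyp316a1, Cyp318a1, Cyp4ac1, Cyp4ac2, Cyp4c3, Cyp4d20, Cyp4d21, Cyp4d8, Cyp4e1, Cyp4s3, Cyp6a18, Cyp6a21, Cyp6a22, Cyp6t1 and Cyp6t3. A value below the floor bounds the signal of a probe set and does not show that the gene is silent.

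**Figure D1:**
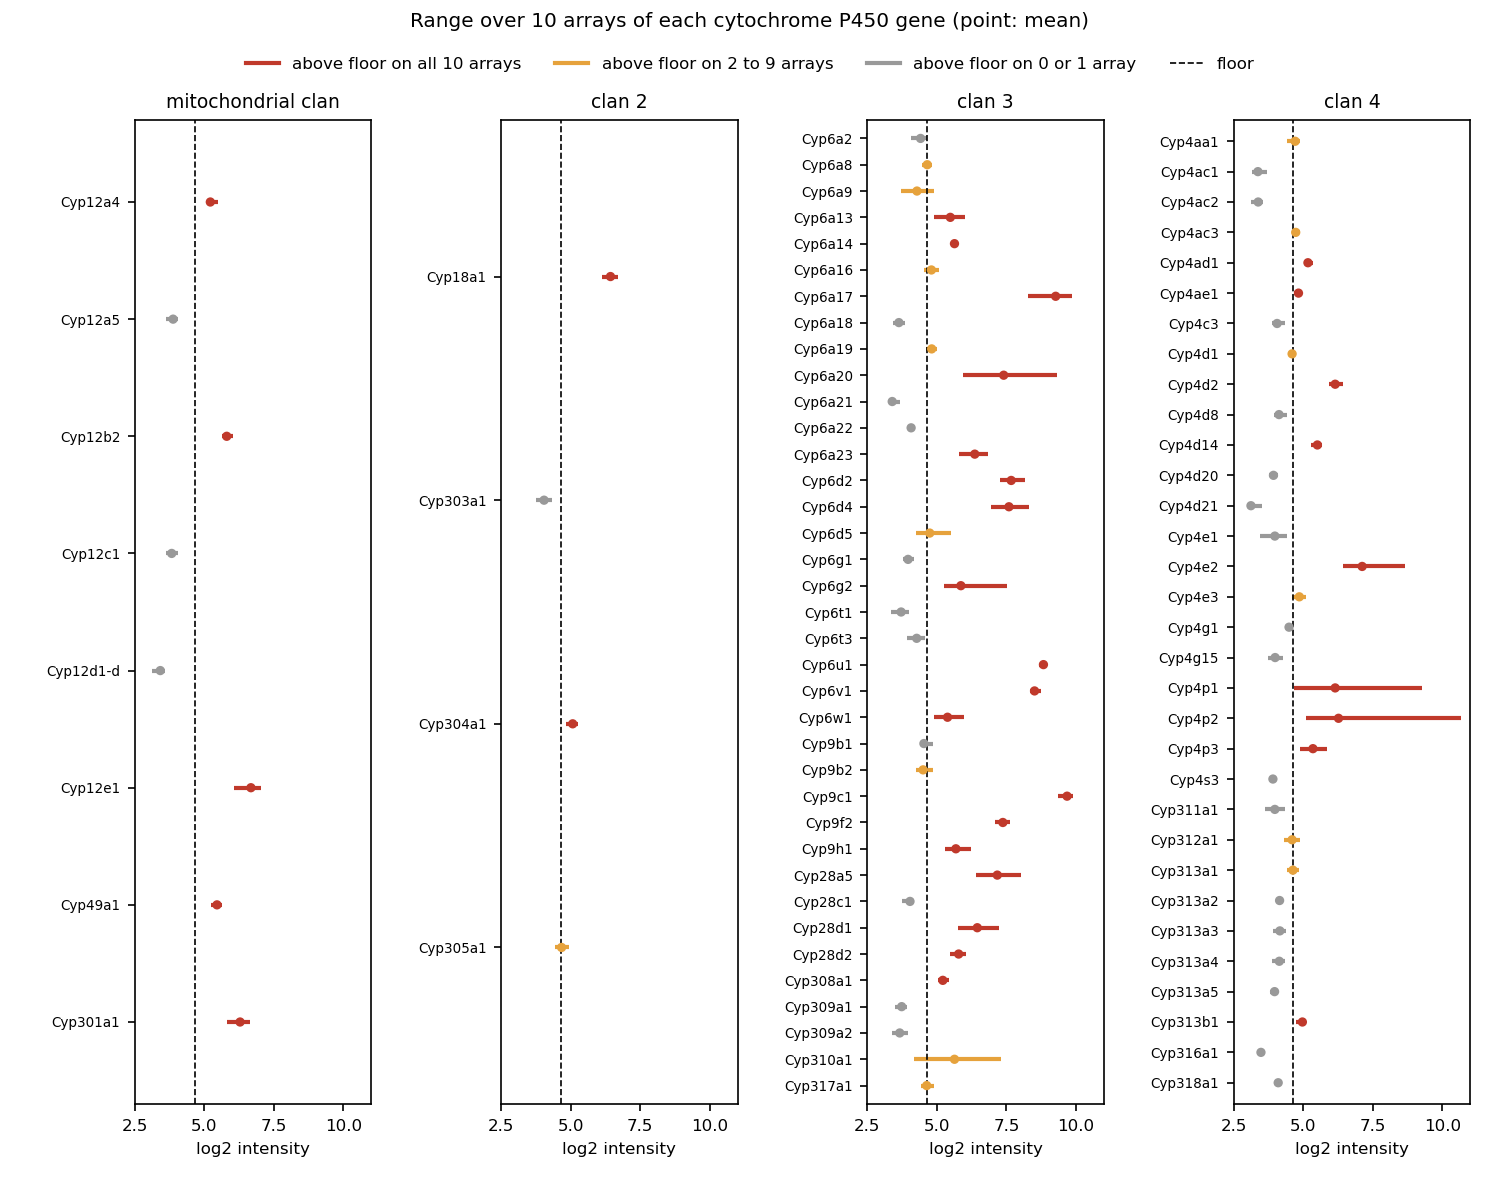
Log2 intensity (x axis) of the 81 cytochrome P450 genes in 4 clans, as the range over 10 arrays (line) and the mean (point), with the floor of 4.65 as a dashed line. Red marks the 34 genes above the floor on all 10 arrays, orange the 15 above it on 2 to 9 arrays, and grey the 32 above it on 1 array or none.

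For 8 genes both arrays of at least 1 genotype were above the floor and neither array of another was. Cyp310a1 was above it on both arrays of every genotype except Notch intra, where it lay at 4.38 and 4.19. Cyp6d5, induced by foreign compounds, was above it on both COX7a RNAi arrays (5.10 and 4.87) and both Notch intra arrays (4.71 and 4.72), but on neither GFP array (4.58 and 4.51) nor Delta array (4.26 and 4.55). The others were Cyp305a1, Cyp313a1, Cyp317a1, Cyp4ac3, Cyp4d1 and Cyp6a8. None of the 8 was called in any comparison with all arrays fitted together, so these crossings of the floor are descriptions only. In that fit the log2 difference of Cyp310a1 between Notch intra and GFP was -1.37 ± 0.64 SE (limma adjusted p = 0.201). With the arrays of each comparison fitted alone, Cyp310a1 was called lower with Notch intra. The limma adjusted p was then 0.000991 against GFP (log2 -1.37) and 0.00107 against Delta (log2 -1.5).

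Replicates of the P450 genes lay further apart than those of most genes. Their median residual SD was 0.155 log2 units against 0.0799 over all genes tested, and their median level was 5.51 against 8.73. The widest spread was that of Cyp310a1, with a residual SD of 0.816: its COX7a RNAi arrays were at 4.75 and 6.89 and its Delta with COX7a RNAi arrays at 5.89 and 7.32.

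A gene was called where limma's two-sided p, adjusted by Benjamini-Hochberg over all 8731 genes tested, was under 0.05, and 11 P450 genes were called in at least 1 of 7 comparisons. That is 22.4% of the 49, near the 21.7% of all genes tested that were called in at least 1. The other 38 tested genes were called in none, and 19 of them had an unadjusted p under 0.05 in at least 1 of the 7 comparisons. The share of all genes at that unadjusted threshold was not counted, so nothing is read from this number. The called genes belonged to clan 3 (8 genes) and clan 4 (3 genes), and none of the 3 tested genes of clan 2 or the 5 of the mitochondrial clan was called. With so few genes in these clans, nothing is read from the split. In samples of whole discs, fewer cells of a type and less RNA per cell cannot be told apart. The comparisons against GFP share the same 2 GFP arrays.

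None of the 5 tested mitochondrial P450 genes passed the test in any comparison. Cyp12a4 lay between 5.08 and 5.47 on all arrays, Cyp12b2 between 5.64 and 6.02, and Cyp49a1 between 5.23 and 5.63. Cyp12e1 was at 7.04 and 7.03 with GFP and at 6.65 and 6.07 with Notch intra, a log2 difference of -0.67 ± 0.22 (SE, limma adjusted p = 0.0806) that did not pass. In clan 2, Cyp304a1 lay between 4.82 and 5.27 and Cyp305a1 between 4.43 and 4.93. Some clan 3 genes were well above the floor with a narrow range: Cyp6u1 lay between 8.68 and 8.93, Cyp6v1 between 8.33 and 8.75, and Cyp9f2 between 7.09 and 7.62, and none was called.

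**Figure D2:**
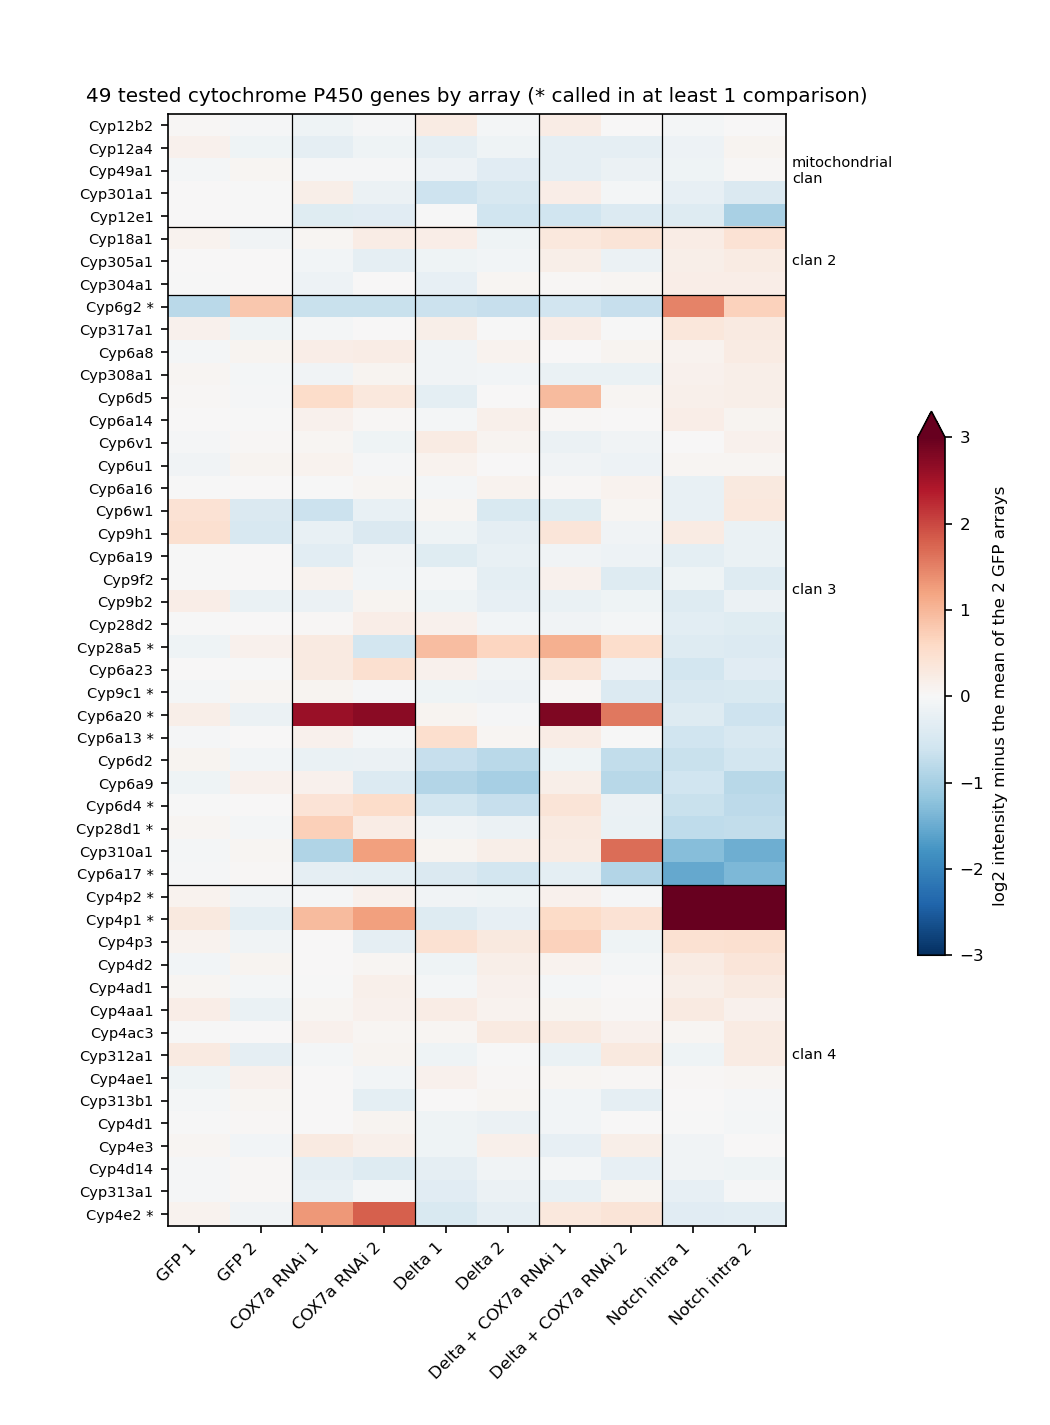
Log2 intensity of the 49 tested cytochrome P450 genes on each of the 10 arrays (columns) minus the mean of the 2 GFP arrays, grouped by clan; the scale ends at 3, and values above it have the darkest red. The strongest reds are Cyp4p1 and Cyp4p2 on the Notch intra arrays and Cyp6a20 on the 4 arrays with COX7a RNAi; asterisks mark the 11 called genes.

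With COX7a RNAi alone, 3 P450 genes rose against GFP, Cyp6a20, Cyp4e2 and Cyp4p1, and none fell. That is 6.12% of the 49 tested, against 4.5% of all genes tested (3.04% higher and 1.47% lower), a difference of few genes from the background. The median log2 fold change was 0.01 for the P450 genes and 0.00 for all genes. Cyp6a20, which affects aggression between males in adult flies, was at 6.71 and 6.35 on the GFP arrays and at 9.11 and 9.23 with COX7a RNAi. The arrays did not overlap, and Cyp6a20 rose 6.24-fold (log2 2.64 ± 0.32 SE, limma adjusted p = 0.0033). Cyp4e2 was at 6.99 and 6.78 with GFP and at 8.18 and 8.67 with COX7a RNAi. Again the arrays did not overlap, and the rise was 2.91-fold (1.54 ± 0.15, limma adjusted p = 0.00123). Cyp4p1 was at 5.34 and 4.76 with GFP and at 6.0 and 6.29 with COX7a RNAi, a 2.14-fold rise (1.10 ± 0.18, limma adjusted p = 0.0127) without overlap. Arrays also did not overlap for genes that were not called here, such as ct, and the share over all genes was not counted. Non-overlap of 2 arrays with 2 is therefore no further support for a call. In this comparison the calls of Cyp6a20 and Cyp4e2 held when any 1 array was left out, while that of Cyp4p1 was lost without COX7a RNAi replicate 2 (limma adjusted p = 0.0604) and when the arrays of COX7a RNAi and GFP were fitted alone (limma adjusted p = 0.101). Among markers of other cell types, 2 of 4 trachea genes were called lower here, Gasp (log2 -0.31) and serp (-0.44). The trachea genes verm (-0.4) and btl (0.06) were not called. The summed level of the trachea list was 13.97 to 14.02 (log2) with GFP and 13.6 to 13.68 with COX7a RNAi. Of the 6 ring gland genes, Akh was called, 6.42-fold higher (limma adjusted p = 0.00216). The part of these genes in the P450 values was not tested.

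In discs with Delta, 4 P450 genes rose with COX7a RNAi and none fell, 8.16% of those tested against 3.73% of all genes (2.18% higher and 1.56% lower). Cyp6a20 was at 6.61 and 6.49 in Delta discs and at 9.33 and 8.12 in Delta with COX7a RNAi discs. It rose 4.51-fold (log2 2.17 ± 0.32 SE, limma adjusted p = 0.00981), and both arrays with the hairpin were above both without it. The remaining calls were smaller. Cyp6d4 was at 7.18 and 7.04 in Delta discs and at 8.12 and 7.57 with the hairpin added, 1.66-fold higher (limma adjusted p = 0.0453). Cyp4e2 was at 6.43 and 6.61 against 7.20 and 7.26, 1.64-fold higher (limma adjusted p = 0.0436). Cyp4p1 was at 4.67 and 4.81 against 5.62 and 5.49, 1.76-fold higher (limma adjusted p = 0.0485). None of the 3 overlapped between the genotypes, which is no further support for the calls.

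All 4 calls in the Delta background depended on single arrays, and the count was 0 without Delta replicate 1 or without Delta replicate 2. Among the fits that leave out 1 array, Cyp6a20 was lost only in these. It was also lost when the arrays of Delta and of Delta with COX7a RNAi were fitted alone (limma adjusted p = 0.0719). Cyp4p1 was lost in 6 of the 10 fits that leave out 1 array (Delta, Delta with COX7a RNAi and Notch intra arrays; highest limma adjusted p = 0.247). Cyp4e2 was lost in 8, all but those without a COX7a RNAi array (highest 0.243 by limma, adjusted), and Cyp6d4 in 9, all but that without Delta with COX7a RNAi replicate 2 (highest 0.204 by limma, adjusted). Without Delta with COX7a RNAi replicate 1 the log2 difference of Cyp6d4 was 0.46, against 0.73 with all arrays.

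The interaction asks whether COX7a RNAi acted differently with and without Delta, and no P450 gene was called for it, against 0.573% of all genes (0.263% higher and 0.309% lower). Of the 49, 4 P450 genes had an unadjusted limma p under 0.05, with no share of all genes counted beside it. For Cyp4e2 the rise with COX7a RNAi was smaller in the Delta background by 0.83 ± 0.22 (log2, SE), with a 95% interval of the interaction from -1.32 to -0.33, but the limma adjusted p was 0.218. For Cyp6a20 the interaction was -0.47 ± 0.46 (95% interval -1.52 to 0.58, limma adjusted p = 0.818), and for Cyp4p1 it was -0.28 ± 0.25 (-0.87 to 0.30, limma adjusted p = 0.792). The intervals of Cyp6a20 and Cyp4p1 include 0. The interaction count was also 0 under every other setting tried. COX7A itself fell 7.19-fold with COX7a RNAi against GFP and 4.64-fold in the Delta background. Its interaction was 0.63 ± 0.13 (95% interval 0.34 to 0.92, limma adjusted p = 0.0883). The part of this difference in knockdown in the P450 interactions was not tested.

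In Delta with COX7a RNAi discs, Cyp6a20 alone among the P450 genes was called against GFP, 4.59-fold higher (log2 2.20 ± 0.32 SE, limma adjusted p = 0.00569). That is 2.04% of P450 genes tested against 7.54% of all genes (4.59% higher and 2.94% lower). Leaving out 1 array moved its log2 difference between 1.59 and 2.80. The call was lost when the arrays of these genotypes were fitted alone, and without GFP replicate 2. The count of P450 calls in this comparison ran from 0 without that array to 4 without Delta with COX7a RNAi replicate 1. It was 3 without GFP replicate 1, and 2 without Delta with COX7a RNAi replicate 2 or without either COX7a RNAi array. Among markers, 3 of 4 trachea genes (Gasp, serp and verm) and 3 of 8 disc markers (Optix, so and toy) were called lower in this comparison. The part of these markers in the P450 values was not tested.

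With Delta alone, limma called no P450 gene at an adjusted p under 0.05, against 2.37% of all genes (1.34% higher and 1.03% lower). An unadjusted p under 0.05 was reached by 9, with no share of all genes counted beside it. The median log2 fold change was -0.10 for the P450 genes and 0.02 for all genes. The nearest was Cyp6d2, at 8.16 and 7.98 with GFP and at 7.37 and 7.25 with Delta (log2 -0.76 ± 0.18 SE, limma adjusted p = 0.0752). Cyp301a1, a mitochondrial P450 needed for cuticle formation, was at 6.45 and 6.44 with GFP and at 5.82 and 5.97 with Delta (-0.55 ± 0.14, limma adjusted p = 0.102). With COX7a RNAi added to Delta, Cyp301a1 was at 6.64 and 6.38 (0.61 ± 0.14 against Delta, limma adjusted p = 0.0556). The count of 0 rose to 4 without either Delta with COX7a RNAi array: Cyp6a17, Cyp6a9, Cyp6d2 and Cyp6d4, all lower in Delta discs. It rose to 6 (1 higher and 5 lower) when the Delta and GFP arrays were compared alone.

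With Notch intra, 2 P450 genes were higher and 4 lower than in GFP discs. These 6 calls are 12.2% of the P450 genes tested, near the 13% of all genes called in this comparison (5.99% higher and 7.06% lower). The median absolute log2 difference was 0.25 for the P450 genes and 0.11 for all genes, beside the larger replicate spread of the P450 genes given above.

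Cyp4p1 and Cyp4p2 were the risen genes. Cyp4p2 was between 5.09 and 5.35 on the 8 arrays of the other genotypes and at 10.40 and 10.66 with Notch intra. It rose 39.9-fold against GFP (log2 5.32 ± 0.12 SE, limma adjusted p = 3.44e-07). Cyp4p1 was at 9.22 and 9.28 with Notch intra, above every other array, and rose 18.4-fold against GFP (4.20 ± 0.18, limma adjusted p = 4.83e-06). Both calls held when any 1 array was left out. Against Delta, the rise was 43.3-fold for Cyp4p2 (limma adjusted p = 3.1e-07) and 22.8-fold for Cyp4p1 (limma adjusted p = 5.23e-06). Cyp4p1 was thus the only P450 gene called in both the COX7a RNAi and the Notch intra comparison with GFP. Neither Cyp4p gene was called in Delta discs, where Cyp4p2 was at 5.10 and 5.09 and Cyp4p1 at 4.67 and 4.81.

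Of the genes lower with Notch intra than with GFP, Cyp6a17, which affects temperature preference, moved most. It was at 9.80 and 9.87 with GFP and at 8.29 and 8.49 with Notch intra, 2.73-fold lower (log2 -1.45 ± 0.16 SE, limma adjusted p = 0.000707). This call held when any 1 array was left out. Cyp28d1, linked to nicotine resistance, was at 6.59 and 6.48 with GFP and at 5.76 and 5.79 with Notch intra, 1.69-fold lower (limma adjusted p = 0.0335). Cyp6d4 was at 7.73 and 7.76 against 7.07 and 6.96, 1.66-fold lower (limma adjusted p = 0.02). Cyp9c1 was at 9.76 and 9.90 against 9.34 and 9.38, 1.38-fold lower (limma adjusted p = 0.0496). The arrays of the 2 genotypes did not overlap for any of the 4, which is no further support for the calls.

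The calls of Cyp28d1, Cyp6d4 and Cyp9c1 were lost when single arrays were left out. Cyp28d1 was lost without any GFP, Delta or Notch intra array (highest limma adjusted p = 0.161), and Cyp6d4 without any GFP or Notch intra array (highest 0.108 by limma, adjusted). Cyp9c1 was lost without any array other than the Delta with COX7a RNAi arrays (highest 0.236 by limma, adjusted). The count of 6 became 3 without GFP replicate 1 or without Notch intra replicate 2. Disc markers changed as well: 5 of 8 were called with Notch intra against GFP, with ey and toy higher and Optix, ct and Dll lower. Dll, which patterns the antenna, was at 9.66 and 9.73 with GFP and at 7.42 and 7.06 with Notch intra, 5.5-fold lower (limma adjusted p = 0.000666). Markers of some other cell types were lower too: the summed level of the muscle list was 10.87 to 11.15 (log2) with GFP and 9.33 to 9.46 with Notch intra. That of the trachea list was 13.97 to 14.02 and 12.77 to 12.93, and that of the neuron and glia list 10.70 to 10.83 and 10.11 to 10.17. In each of these 3 lists 2 genes were called lower. In the neuron and glia list these were repo and moody, while elav (log2 -0.16) and nSyb (0.02) were not called. In the trachea list they were Gasp and serp, while verm (log2 -0.41) and btl (0.03) were not called. In the muscle list they were Act87E and Mp20, while up (log2 -1.1) was not called. The haemocyte list went the other way, at 7.09 to 7.21 with GFP and 7.48 to 8.2 with Notch intra, and none of its 4 tested genes was called. The part of the disc markers and of these lists in the P450 values was not tested.

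**Figure D3:**
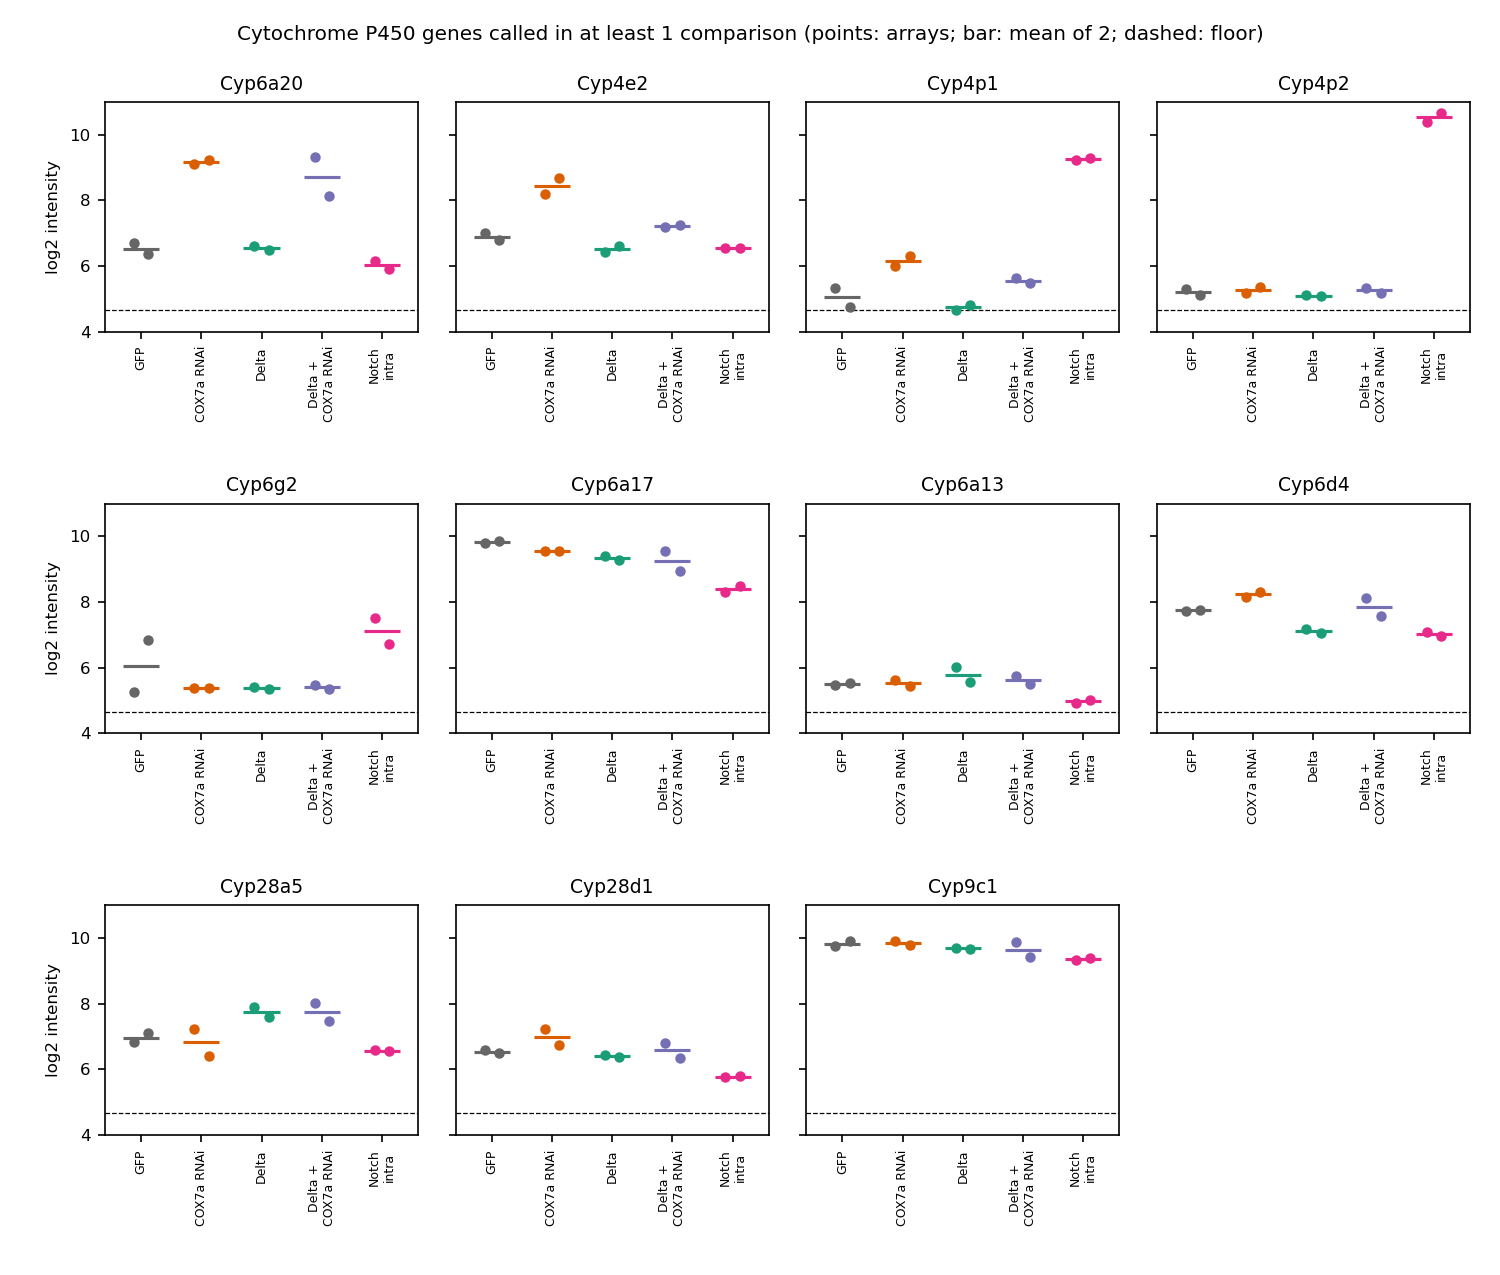
Log2 intensity (y axis) of the 11 called cytochrome P450 genes in the 5 genotypes, with each array as a point, the mean of 2 arrays as a bar and the floor of 4.65 dashed. Cyp4p2 sits between 5.09 and 5.35 in 4 genotypes and at 10.40 and 10.66 with Notch intra, and Cyp6a20 is above 8 only on the 4 arrays with COX7a RNAi.

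Notch intra and Delta discs were also compared directly, and 3 P450 genes were higher and 3 lower with Notch intra, 12.2% of those tested against 9.53% of all genes (3.24% higher and 6.29% lower). Besides the Cyp4p genes, Cyp6g2 was higher, and Cyp6a17, Cyp6a13 and Cyp28a5 were lower. Cyp6a17 was at 9.40 and 9.27 with Delta, 1.93-fold above Notch intra (limma adjusted p = 0.0088). Cyp6a13 was at 6.01 and 5.55 with Delta and at 4.91 and 5.02 with Notch intra, 1.76-fold lower (limma adjusted p = 0.0148). Cyp28a5 was at 7.89 and 7.60 against 6.57 and 6.54, 2.28-fold lower (limma adjusted p = 0.0308). The groups did not overlap for these 3 genes, which is no further support for the calls. The count was 2 without Delta replicate 1 or Notch intra replicate 1 and 3 without Notch intra replicate 2. Cyp28a5 was lost without any Delta or Notch intra array (highest limma adjusted p = 0.182), Cyp6a13 without Delta replicate 1 or either Notch intra array (highest 0.0924 by limma, adjusted), and Cyp6a17 without Delta replicate 1 or Notch intra replicate 1 (highest 0.0725 by limma, adjusted).

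Cyp6g2 is described in the corpus allatum, a part of the ring gland. It was at 5.40 and 5.36 with Delta and at 7.52 and 6.72 with Notch intra, 3.34-fold higher (log2 1.74 ± 0.45 SE, limma adjusted p = 0.0475), and was lost in 8 of 10 fits without 1 array (highest 0.236 by limma, adjusted, without Notch intra replicate 1). Only the fits without a GFP array kept it. The GFP arrays themselves were at 5.24 and 6.85, and the other 4 arrays, with COX7a RNAi with or without Delta, lay between 5.35 and 5.46. Against GFP, Notch intra was 1.07 ± 0.45 higher (limma adjusted p = 0.161). This difference was 0.27 without GFP replicate 1 (limma adjusted p = 0.655) and 1.88 without GFP replicate 2 (limma adjusted p = 0.00793).

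Ring gland genes varied among the same arrays. The summed level of the ring gland list was 8.19 to 10.57 (log2) with GFP, 9.70 to 10.15 with Delta and 10.49 to 11.77 with Notch intra. Akh, a hormone gene of the corpora cardiaca, was at 5.79 and 5.52 with GFP, 5.77 and 5.5 with Delta, and 9.86 and 8.94 with Notch intra. It was called higher with Notch intra, 13.4-fold against GFP (limma adjusted p = 0.000119). It was at 8.66 and 8.01 with COX7a RNAi, where it was also called and where Cyp6g2 was at 5.37 on both arrays. Their part in the Cyp6g2 difference was not tested.

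**Figure D4:**
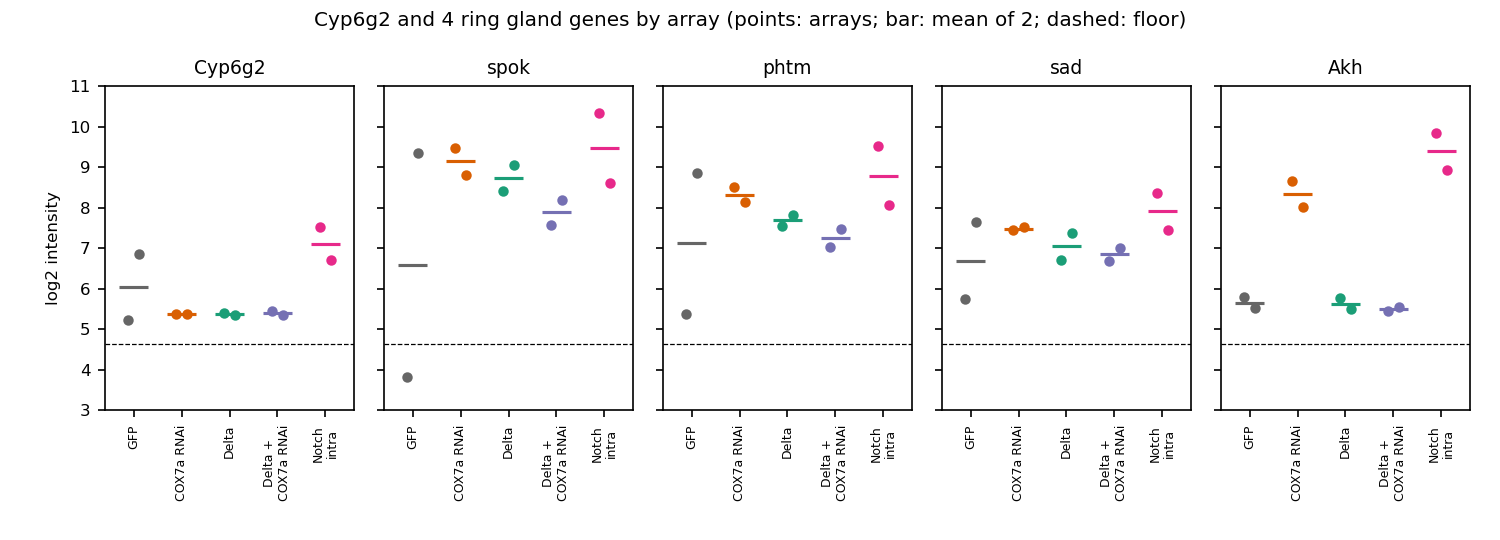
Log2 intensity (y axis) of Cyp6g2 and the ring gland genes spok, phtm, sad and Akh in the 5 genotypes, with each array as a point, the mean of 2 arrays as a bar and the floor of 4.65 dashed. On GFP replicate 1 spok is at 3.83, phtm at 5.39 and sad at 5.74, each below every other array.

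The ecdysteroid genes whose P450 products carry other names are not matched by the symbol, and they were examined beside the 81. All 6 (phtm, dib, sad, shd, spo and spok) passed the floor, and none was called in any comparison. phtm, which encodes an ecdysteroid 25-hydroxylase, was at 5.39 and 8.87 on the GFP arrays, 8.51 and 8.15 with COX7a RNAi, 7.56 and 7.83 with Delta, 7.03 and 7.49 with Delta and COX7a RNAi, and 9.52 and 8.07 with Notch intra. The gap between the GFP arrays was thus larger than the difference between any of the genotype means. Without GFP replicate 1, no ecdysteroid gene was called either, and phtm with COX7a RNAi against GFP turned from 1.20 to -0.54 (log2). Without GFP replicate 2, which leaves GFP replicate 1 as the sole control, 3 of these genes gave 8 calls. spok was then called higher in all 4 comparisons with GFP, by 4.07 to 5.65, and for the interaction (-6.16, limma adjusted p = 0.0479). phtm was called higher with COX7a RNAi (2.94, limma adjusted p = 0.0418) and with Notch intra (3.40, limma adjusted p = 0.00874), and sad with Notch intra (2.17, limma adjusted p = 0.0178). Cyp18a1, which inactivates ecdysteroids, lay between 6.13 and 6.69 on all arrays and was not called.

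Of the listed redox partners of P450 enzymes, 3 were tested. Fdx1, a mitochondrial ferredoxin, was at 9.23 and 9.12 with GFP, 9.79 and 9.95 with COX7a RNAi, 9.30 and 9.36 with Delta, and 9.86 and 9.72 with both. It rose by 0.70 ± 0.07 (log2, SE) with COX7a RNAi against GFP (limma adjusted p = 0.00174), by 0.46 ± 0.07 in the Delta background (limma adjusted p = 0.0148) and by 0.62 ± 0.07 with both against GFP (limma adjusted p = 0.00268). In the Delta background its call was lost in 3 of 10 fits without 1 array (highest 0.113 by limma, adjusted, without Delta replicate 1). Fdx2, the other ferredoxin, was called only with both against GFP (0.30 ± 0.06, limma adjusted p = 0.0176), and not with COX7a RNAi alone (limma adjusted p = 0.0982) or in the Delta background (limma adjusted p = 0.0539). Its call was lost in 3 such fits (highest 0.116 by limma, adjusted). Cyt-b5 was not called, Cyt-b5-r was below the floor, and Cpr and dare were not analysed here.

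Of the list of P450 genes induced by foreign compounds, 6 of 7 were measured, 3 passed the floor (Cyp6a8, Cyp6d5 and Cyp6w1) and none was called in any comparison. Cyp6d5 had the smallest unadjusted limma p among them, in the Delta background with COX7a RNAi (log2 0.65 ± 0.25 SE, limma adjusted p = 0.223). Of the regulators of such induction and of the ecdysone response, 7 of 8 passed the floor (cnc, Keap1, Hr96, EcR, usp, ftz-f1 and Hr4), and none was called.

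Many P450 genes lie next to each other, and 41 of the 81 had another P450 gene as a neighbour among protein-coding genes in the RefSeq order of the Release 6 plus ISO1 MT assembly. In the longest run, 9 genes on chromosome arm 2R in the order Cyp6a22, Cyp6a17, Cyp6a23, Cyp6a19, Cyp6a9, Cyp6a20, Cyp6a21, Cyp6a8 and Cyp317a1, 7 were tested and 2 called. Cyp6a20 rose with COX7a RNAi and Cyp6a17 fell with Notch intra. Cyp6a23, next to Cyp6a17, was at 6.36 and 6.33 with GFP and at 5.81 and 6.0 with Notch intra (log2 -0.44 ± 0.18 SE, limma adjusted p = 0.148).

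The Cyp4p genes form a run of 3 in the order Cyp4p2, Cyp4p1 and Cyp4p3. Cyp4p3 was at 5.26 and 5.05 with GFP and at 5.61 and 5.64 with Notch intra, a log2 difference of 0.47 ± 0.24 SE (95% interval -0.07 to 1.01, limma adjusted p = 0.238), beside 4.20 and 5.32 for its neighbours. Cyp4e2 lies between Cyp4ad1, which was tested and not called, and Cyp4e1, which was below the floor on all arrays. No P450 gene was represented by a probe set of the kind marked as shared between genes, but cross-hybridisation between close relatives was not tested.

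**Figure D5:**
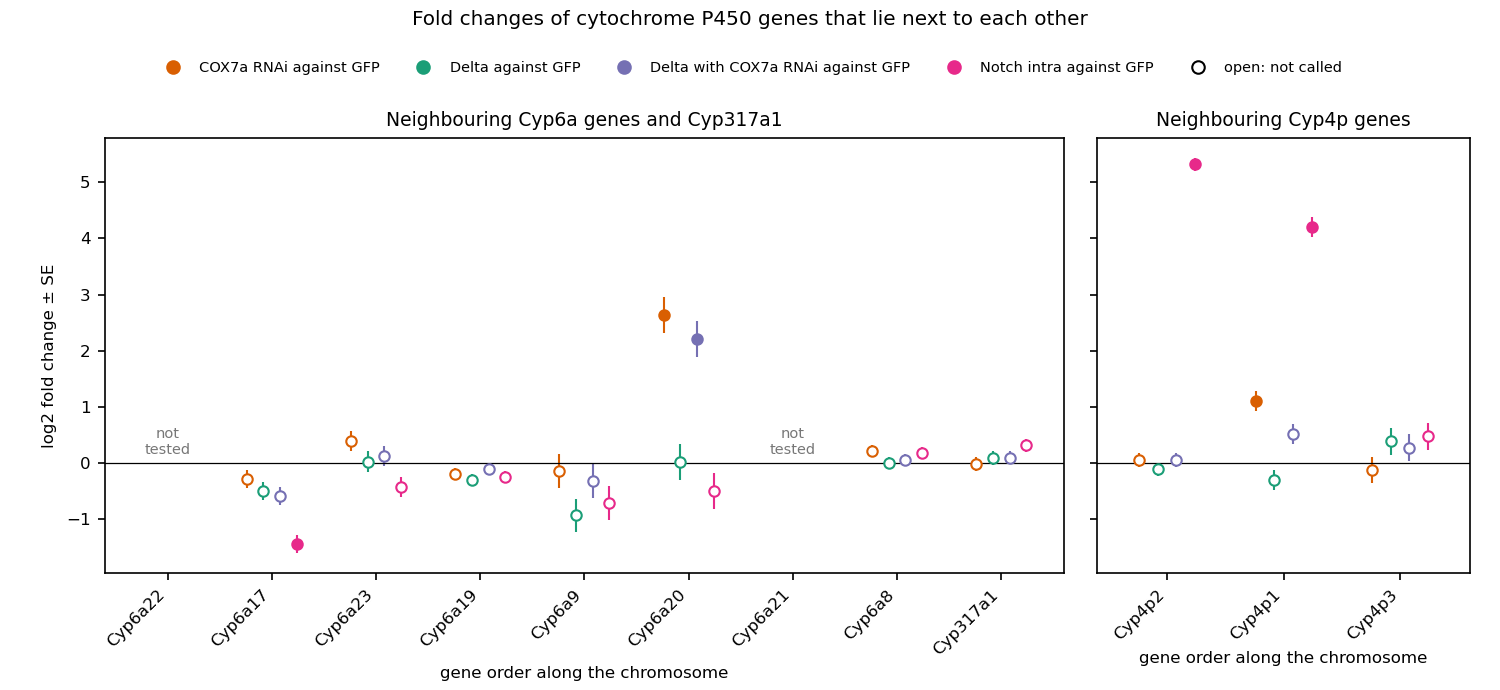
Log2 fold change with its SE (y axis) against GFP for 2 runs of neighbouring cytochrome P450 genes in chromosome order (x axis), coloured by comparison; filled points were called and open points were not. Within the runs only Cyp6a17, Cyp6a20, Cyp4p1 and Cyp4p2 have filled points, and with Notch intra Cyp4p3 is at 0.47 beside its neighbours at 4.20 and 5.32.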

How the data were processed

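The files hold log2 values deposited by the authors, with 1 value for each probe set on each array. The submitters' processing notes name RMA beside the programs Affymetrix Expression Console and, in version 3.0.0.466, Transcriptome Analysis Console, with roles not stated. RMA makes the array distributions alike, which removes any shift common to most genes. Per the labels' protocols, amplification started from 50 ng of RNA with an Affymetrix 3' IVT kit. Detection calls and scan dates are not given in the sources used here, so batches were not tested. Gene order came from the assembly named above, and no coordinates are given.

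Of 18952 probe sets, 183 controls were left out, and 13647 had 1 gene symbol in the platform annotation, for 11982 genes. The floor was the 40th percentile of all deposited values, and 8731 genes passed it. limma 3.58.1 in R 4.3.3 was fitted to the 10 arrays together, with a mean for each genotype, 5 residual degrees of freedom and a variance prior that followed intensity. Calls needed an adjusted p (Benjamini-Hochberg, over all genes tested) under 0.05. The p-values set a difference of means against the spread between replicate arrays. That spread was estimated over all genotypes together and drawn toward the prior, and the number of arrays limits precision. The script was tested on simulated data. All 81 P450 genes were found in RefSeq's gene table, used for names and gene order.

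The text names every called P450 gene, the members with listed roles, the redox partners and the ecdysteroid genes, and others by level or count. The members and lists were chosen with earlier results of these data known. Alternatives covered the filter, the variance model, a replicate block, median centring, the mean of all probe sets per gene, a minimum fold change, each comparison's arrays alone, and leaving out each array.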

Additional observations from a re-analysis of the deposited data

How the results depend on the processing

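For the 11 called P450 genes in all 7 comparisons, 1342 values under the alternatives kept their side of the threshold, 83 lost a call and 31 gained one. Most of these values were not called with all arrays, so the number kept says little about how stable the calls were. The call of Cyp9c1 with Notch intra against GFP was lost in 13 of 19 alternatives, and that of Cyp4p2 in 0 of 19. No value called with all arrays or under the alternative changed sign, but 35 uncalled values of these genes did. Cyp6g2 with COX7a RNAi against GFP, for example, turned from -0.67 to 0.13 without GFP replicate 2. The number of P450 genes above background was 49, or 58 and 33 with the floor at the 30th and 50th percentile. With each comparison's arrays fitted alone, the calls became 2 for COX7a RNAi against GFP, 6 for Delta against GFP, 12 for Notch intra against GFP, 1 for COX7a RNAi in the Delta background, 0 for Delta with COX7a RNAi against GFP and 10 for Notch intra against Delta. Without an intensity trend, COX7a RNAi in the Delta background had 1 call, and with the mean of all probe sets per gene Delta with COX7a RNAi had 2 against GFP. Leaving out 1 array gave 2 to 4 calls for COX7a RNAi against GFP, 0 to 4 for Delta, 3 to 8 for Notch intra and 0 to 4 for Delta with COX7a RNAi, each against GFP. It gave 0 to 5 for COX7a RNAi in the Delta background, 2 to 7 for Notch intra against Delta and 0 for the interaction. The causes were not tested. Same-numbered arrays of 10 genotype pairs correlated between -0.22 and 0.38 in their deviations, 2 of them over 0.1. These correlations cannot decide whether the replicate numbers pair the samples, which the labels do not state. With the replicate number as a block, the calls against GFP were 3 for COX7a RNAi, 0 for Delta and 7 for Notch intra, with 3 for COX7a RNAi in the Delta background, 1 for Delta with COX7a RNAi against GFP, 6 for Notch intra against Delta and 0 for the interaction. Signal close to the floor limits 15 of the 49 tested genes, which were below it on at least 1 array. It also limits some genes above the floor on all arrays. Cyp4p1, for example, was at 4.76 on GFP replicate 2 and at 4.67 and 4.81 with Delta, so its fold changes start near the floor.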

Other observations

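Cyp18a1 had a second probe set, which was not used for the counts. It was at 5.83 and 5.69 with GFP, 5.58 and 5.98 with Delta, and 6.48 and 6.51 with Delta and COX7a RNAi. In a fit over all single-gene probe sets it was called with COX7a RNAi in the Delta background (log2 0.72 ± 0.16 SE, limma adjusted p = 0.0485) and with both against GFP (0.74 ± 0.16, limma adjusted p = 0.0292). The probe set used in the report gave 0.32 ± 0.14 (limma adjusted p = 0.282) and 0.34 ± 0.14 (limma adjusted p = 0.185). Both probe sets had the same sign in these comparisons and differed in the call.

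A probe set annotated to both shn and Cyp6v1 was at 10.75 and 10.59 with GFP and at 10.23 and 9.52 with Notch intra (log2 -0.80 ± 0.20 SE, limma adjusted p = 0.0529, in a fit over 2317 probe sets without a single gene). A probe set annotated to both Cyp12d1 genes was below the floor on all arrays.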
